A study of Mus musculus with 3 samples.

Results

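The 34 genes described here encode proteins of hepatocyte detoxification, bile formation and intermediary metabolism, and all 34 were found by symbol among the 31053 genes of each count matrix. They were read in barcodes in which Alb, Apoa1, Ttr, Trf, Fgb and Serpina1c, 6 secreted-protein genes of hepatocytes, together made up 3% or more of the UMIs (unique molecular identifiers, which count captured RNA molecules). These barcodes are called hepatocyte-transcript-rich below, and every other barcode served to read the level of free RNA. None of the 34 genes took part in choosing barcodes.

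The study used female Balb\c mice injected orthotopically at 8 weeks of age with PBS or with 4T1 cells, a mouse mammary carcinoma line, and took non-parenchymal liver cells after perfusion. There were 3 libraries, 1 per group: a PBS control (age 8 weeks), 4T1 at day 4 (8 weeks) and 4T1 at day 21 (11 weeks). The number of mice behind each library, the day of the control and the hour and feeding state at collection are not given in the labels. With 1 library per group no difference could be tested: no p-value is given, the intervals below are 95% intervals that cover counting error only, and age, batch and treatment cannot be told apart. A lower level in summed counts cannot be told apart from fewer cells expressing the gene.

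Hepatocytes turn cholesterol into bile acids, take bile acids up from portal blood and pump them into bile canaliculi. They oxidise drugs and toxins with cytochromes P450 and make the products soluble with conjugating enzymes such as glutathione and sulfate transferases. The liver lobule divides this work: genes such as Cyp2e1 and Cyp7a1 are expressed around the central vein, and genes of glucose production and amino acid breakdown nearer the portal vein. HNF4A and C/EBP factors are long known to drive many of these genes.

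Promoters of 28 of the 34 genes were held in the RefSeq table for GRCm38.p6, and they were searched on both strands of the 250 bases before the start site for short letters known from these factors and from nuclear receptors. The HNF4A letters CAAAGTCCA were in 2 of 28 members (Cyp3a11 and Cyp8b1) and in 0.451% of the 27025 genes in the table. The C/EBP letters TTGCNNAA were in 5 (Fabp1, Gsta3, Hal, Slc10a1 and Sult2a8), beside 10.8% of genes. AGGTCANAG, part of a repeat bound by nuclear receptors, was in 0 (2.01% of genes). Repeats spelled with other letters were not searched. A match describes the letters and is no evidence of binding. Of the 5 members with the C/EBP letters, Gsta3 and Hal were above control at both times. Fabp1, Slc10a1 and Sult2a8 were below it at day 21 (log2 −0.51, −0.61 and −1.2), so the 5 lay on both sides of control. Both promoters with the HNF4A letters, and those of Gsta3 and Hal, read as follows 5′ to 3′ on the gene strand, with the matched letters in capitals.
Cyp8b1 (chr9:121916306-121916555, minus strand): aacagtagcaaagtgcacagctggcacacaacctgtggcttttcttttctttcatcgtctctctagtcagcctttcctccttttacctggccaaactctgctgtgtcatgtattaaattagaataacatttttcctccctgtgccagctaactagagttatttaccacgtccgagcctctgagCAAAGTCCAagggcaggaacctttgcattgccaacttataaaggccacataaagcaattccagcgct
Cyp3a11 (chr5:145879855-145880104, minus strand): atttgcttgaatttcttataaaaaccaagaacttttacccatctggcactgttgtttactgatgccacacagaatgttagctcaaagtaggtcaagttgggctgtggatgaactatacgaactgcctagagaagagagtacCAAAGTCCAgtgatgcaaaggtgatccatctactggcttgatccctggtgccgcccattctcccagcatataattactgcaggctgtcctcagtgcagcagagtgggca
Gsta3 (chr1:21240335-21240584, plus strand): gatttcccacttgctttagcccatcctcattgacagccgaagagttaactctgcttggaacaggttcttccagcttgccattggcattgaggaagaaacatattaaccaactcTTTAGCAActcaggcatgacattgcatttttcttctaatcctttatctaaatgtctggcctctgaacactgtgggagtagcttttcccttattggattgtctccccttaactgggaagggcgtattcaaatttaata
Hal (chr10:93488518-93488767, plus strand): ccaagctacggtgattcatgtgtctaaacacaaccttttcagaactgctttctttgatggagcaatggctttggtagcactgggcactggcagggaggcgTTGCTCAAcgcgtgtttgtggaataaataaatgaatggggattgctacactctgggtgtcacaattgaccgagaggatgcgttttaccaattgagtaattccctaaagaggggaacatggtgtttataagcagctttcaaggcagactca
The HNF4A letters lay 67 to 59 bases before the start of Cyp8b1 and 109 to 101 bases before that of Cyp3a11. The C/EBP letters lay 137 to 130 bases before the start of Gsta3, on the opposite strand, and 150 to 143 bases before that of Hal.

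The fraction is labelled non-parenchymal, and hepatocyte-transcript-rich barcodes were few. They were 145 of 6489 control barcodes (2.23%, 95% Clopper-Pearson interval 1.89 to 2.62), 328 of 9175 at day 4 (3.57%, 3.2 to 3.98) and 147 of 12338 at day 21 (1.19%, 1.01 to 1.4). Between 2.5 and 3% lay 16, 43 and 31 barcodes, and between 3 and 3.5% lay 22, 43 and 23. Their summed UMIs were 966680, 1501083 and 350708, of which the 10 deepest barcodes held 40.5, 23.7 and 40.4%, and median depth was 1189, 939.5 and 899 UMIs. The summed level of 12 hepatocyte markers was 65160, 61490 and 59720 CPM (UMIs of a gene per 1000000 summed UMIs), with 0 of 12 at zero in any library. Their median mitochondrial share was 21.46, 19.19 and 13.85%. Neutrophil markers, 10 genes, summed to 4.14, 13.3 and 6011 CPM, with 7, 6 and 0 of 10 at zero, and 86 of the 147 day-21 barcodes held 3 or more of their UMIs. Erythroid markers summed to 59, 166 and 2652 CPM and the 7 cholangiocyte markers to 55.9, 27.3 and 929.5 CPM. The libraries shared 13, 22 and 32 barcode sequences in pairs, none of them hepatocyte-transcript-rich in both.

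All 34 members had 20 or more UMIs in each pair of libraries. At day 4 the median log2 ratio to control was 0.21, against 0.05 over all 6804 genes with 20 or more UMIs and 0.12 over 1043 hepatocyte-enriched genes (4-fold or more higher in hepatocyte-transcript-rich than in other barcodes, which holds for 33 members, all but Aldh2). At day 21 the members' median was −0.51, against 0.29 over all 5180 genes and 0.02 over 919 hepatocyte-enriched genes. At day 4, 20 members were above control, beside 54.7% of all genes and 59.6% of hepatocyte-enriched genes, so this count was close to the background, and 14 were below, beside 45.3% and 40.4%. At day 21, 23 members were below control, beside 33.3% and 49%, and 11 were above, beside 66.7% and 51%.

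Intervals lay wholly above control for 17 members at day 4, beside 10.6% of all genes and 25% of hepatocyte-enriched genes, and wholly below it for 7, beside 6.83% and 12%. At day 21 they lay wholly below control for 17 members, beside 6.18% and 16.8%, and wholly above it for 9, beside 20.1% and 20.9%. An interval excludes 0 more readily for a gene with many UMIs, and the levels of these groups of genes were not matched.

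At day 4, 1 member, Cyp4a14, was 2-fold or more lower than control, beside 3.06% of all genes and 2.4% of hepatocyte-enriched genes, and 1 member, Cyp7a1, was 2-fold or more higher, beside 3.95% and 5.66%. At day 21, 5 members (Cyp2e1, Cyp4a14, Ugt2b1, Abcb4 and Sult2a8) were 2-fold or more lower, beside 5.14% of all genes and 8.05% of hepatocyte-enriched genes, and 0 were 2-fold or more higher, beside 11.5% and 7.18%. Between day 21 and day 4, 6 members (Cyp7a1, Cyp1a2, Cyp2f2, Abcb4, G6pc and Sult2a8) were 2-fold or more lower, beside 4.34% and 9.46%, and 0 were higher, beside 10.1% and 5.38%. The comparisons with control share that library, and those with day 21 share its 350708 UMIs.

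The members' day-21 median was −0.50 without barcodes with 3 or more UMIs of another class of markers, where 12 members were 2-fold or more lower and 5 higher. That filter left 58 barcodes with 51699 of 350708 UMIs at day 21. In control it left 123 barcodes with 750871 of 966680 UMIs, so the 12 and 5 rest on few day-21 counts. The share of other genes past 2-fold under that filter was not read, so the 12 and 5 have no background beside them. The median was −0.59 with at most 20% mitochondrial UMIs. In barcodes under 1000 UMIs alone, where 22 members were measured, it was 0.44, beside 0.597 over 253 hepatocyte-enriched genes. In barcodes with 1000 or more UMIs it was −0.47.

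**Figure D1:**
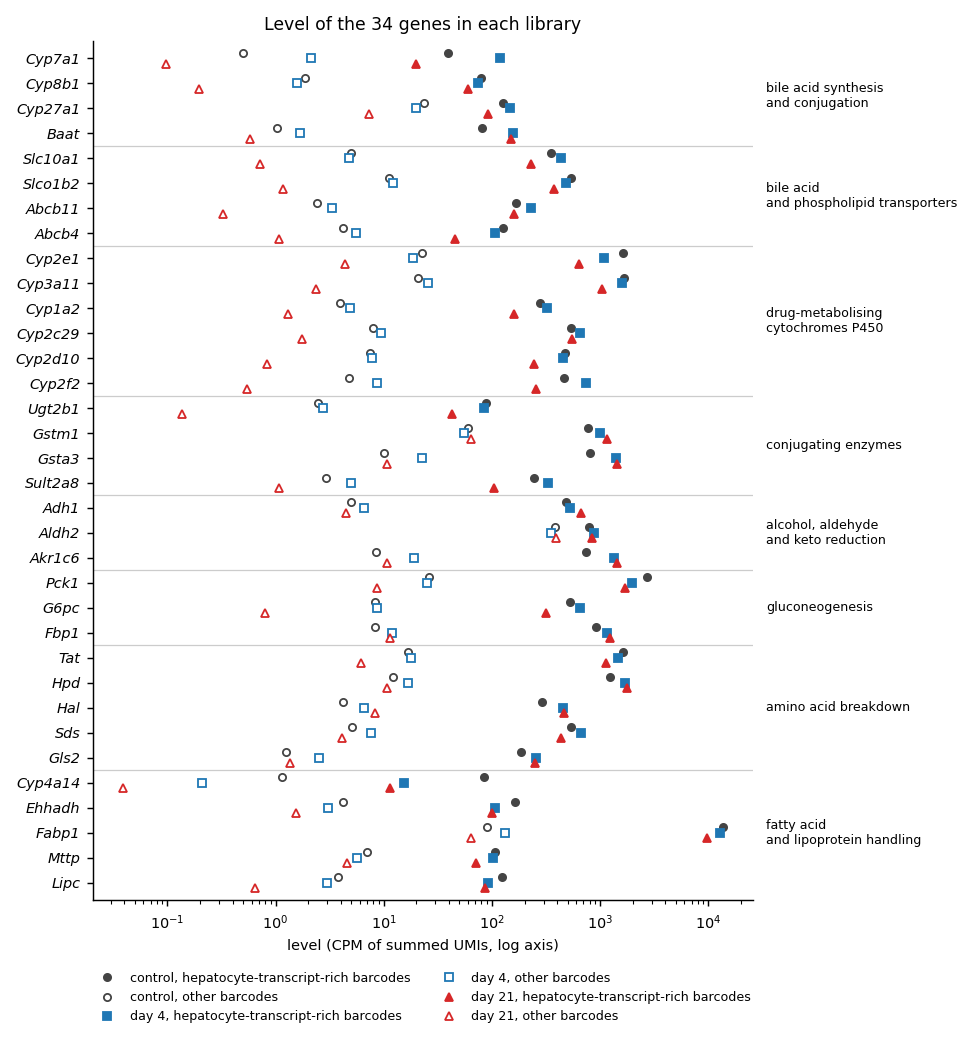
Level of each gene (horizontal log axis, CPM of summed UMIs) in the control, day-4 and day-21 libraries, filled for hepatocyte-transcript-rich barcodes and open for all other barcodes, grouped by role. Filled points lie to the right of open ones for all 34 genes, and lie nearest to them for Aldh2, at 791, 875 and 836 CPM against 384, 351 and 389 CPM.

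Bile acid synthesis held the largest day-4 excess of the 34. Cyp7a1 (chr4:6265612-6275633), the rate-limiting enzyme of the classic pathway, stood at 39.3 CPM in control, 119 at day 4 and 19.96 at day 21, from 38, 178 and 7 UMIs in 12, 38 and 4 barcodes. The day-4 library was highest and was 2.99-fold over control (log2 1.58, 1.08 to 2.14), while the day-21 interval of −2.39 to 0.20 included 0. Baat, which joins bile acids to taurine or glycine, stood at 81.7, 157 and 151 CPM, or 0.94 (0.57 to 1.33) and 0.89 (0.36 to 1.41) above control on the log2 scale. Both 4T1 libraries were higher than control for Baat, and its largest count in any barcode was 9 UMIs, so no single barcode carried it. Cyp8b1, the sterol hydroxylase that sets the share of cholic acid, stood at 79.7, 74.6 and 59.9 CPM, and Cyp27a1, which opens the alternative pathway, at 127, 147 and 91.2 CPM. The intervals of Cyp8b1 and Cyp27a1 against control included 0 at both times.

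All 4 transporters were below control at day 21, with a median log2 ratio of −0.57 (3 of 4 per UMI of the 6 selection genes and when each barcode counted equally). Beside this stood 33.3% of all genes and 49% of hepatocyte-enriched genes below control. Abcb4 (chr5:8893717-8959231), which moves phosphatidylcholine into bile, stood at 126, 107 and 45.6 CPM, 2.69-fold lower at day 21 (log2 −1.43, −2.32 to −0.71). Slc10a1, the sodium-dependent uptake carrier of bile acids, stood at 354, 436 and 231 CPM, higher than control at day 4 (0.30, 0.11 to 0.49) and lower at day 21 (−0.61, −0.98 to −0.26). Slco1b2, an organic anion uptake carrier, stood at 541, 484 and 371 CPM and was lower at day 21 (−0.54, −0.83 to −0.27). Abcb11, the canalicular bile salt export pump, stood at 168, 228 and 160 CPM, with a day-21 interval of −0.53 to 0.38 around −0.06. The group's day-21 median was 0.18 in Cyp2f2-leaning barcodes alone (defined below).

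Of the 6 drug-metabolising cytochromes P450, 5 were below control at day 21 with intervals that excluded 0 (6.18% of all genes and 16.8% of hepatocyte-enriched genes), and the group's median log2 ratio was −0.83 at day 21 and 0.08 at day 4. Cyp2e1 (chr7:140763739-140774987), which oxidises ethanol and paracetamol, stood at 1638, 1085 and 639 CPM, highest in control and lowest at day 21. Its log2 ratio was −0.59 (−0.70 to −0.49) at day 4 and −1.36 (−1.57 to −1.16) at day 21. The single deepest Cyp2e1 count was 269, 169 and 28 UMIs of 1583, 1628 and 224. Cyp2e1 turned to 3.11 and 3.35 above control when only the 17, 26 and 16 barcodes with 10% or more of the selection genes were kept.

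Cyp2f2 (chr7:27119909-27133660), a portal-side P450, stood at 466, 742 and 257 CPM, higher at day 4 (0.67, 0.51 to 0.83) and lower at day 21 (−0.85, −1.20 to −0.53). Cyp2d10 stood at 474, 457 and 242 CPM (day 21 −0.96, −1.32 to −0.63). Cyp1a2, which oxidises caffeine and aromatic amines, stood at 280, 326 and 160 CPM (day 21 −0.80, −1.25 to −0.39), and Cyp3a11, the broad-range drug oxidase, at 1652, 1583 and 1038 CPM (day 21 −0.67, −0.84 to −0.51). For these 4 genes the day-21 library was the lowest of the 3. Cyp2c29 stood apart at 534, 656 and 550 CPM, with a day-21 interval of −0.20 to 0.29. The P450 median at day 21 was above 0 in barcodes under 1000 UMIs (0.17, over 5 of the 6 genes) and in Cyp2f2-leaning barcodes. There it was 0.10 over Cyp3a11 (0.10), Cyp2c29 (0.62) and Cyp2d10 (−0.50), with Cyp1a2 under 20 UMIs and the pair that defines the sides left out, of which Cyp2f2 stood at −0.21. Several members (the Cyp2c, Cyp2d, Cyp3a, Cyp4a, Ugt2b, Gsta, Gstm, Akr1c and Sult2a genes) have close relatives that can share reads, so their counts carry that uncertainty.

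**Figure D2:**
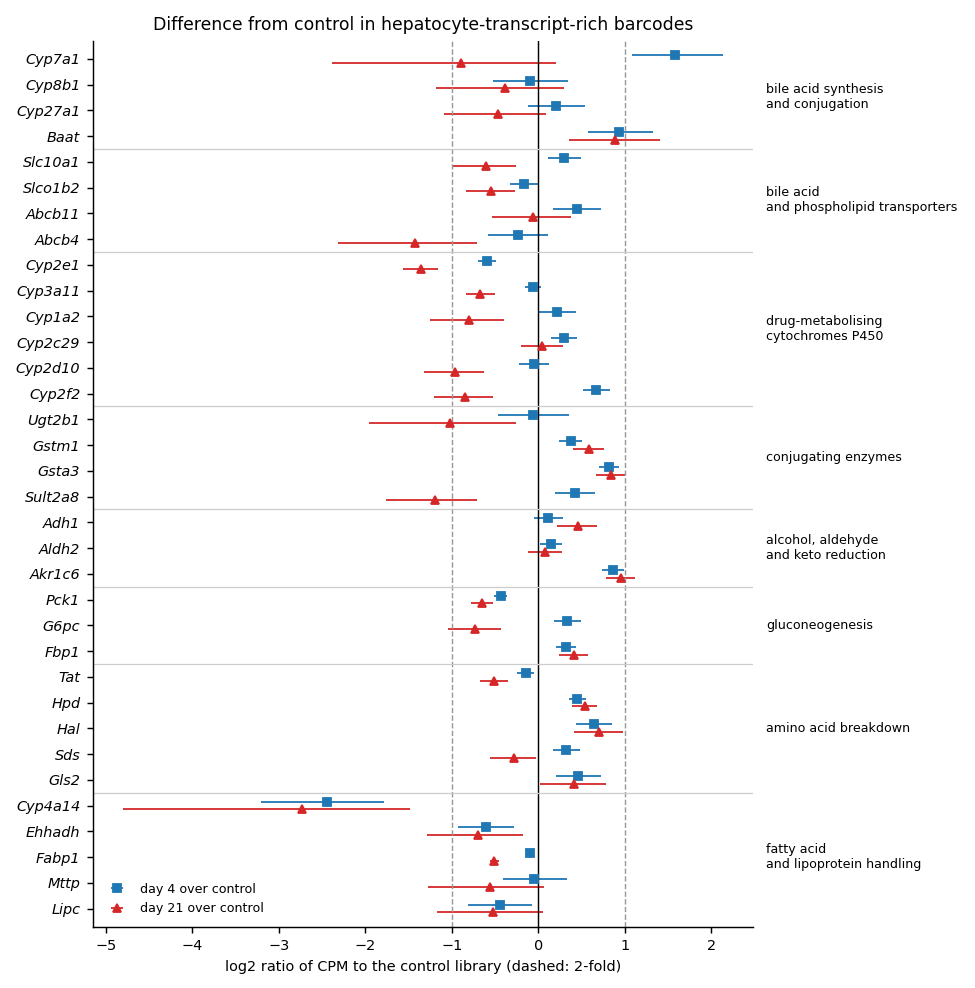
Log2 ratio of CPM to control (horizontal axis) for each gene at day 4 (squares) and day 21 (triangles) in hepatocyte-transcript-rich barcodes, with 95% counting intervals and dashed lines at 2-fold. Cyp7a1 lies at 1.58 at day 4, Cyp4a14 lies beyond −2 at both times, and 23 of the 34 triangles lie left of 0.

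The 4 conjugating enzymes split into opposite pairs at day 21. Gsta3, an alpha-class glutathione transferase, stood at 802, 1414 and 1431 CPM, 0.82 (0.70 to 0.94) and 0.84 (0.67 to 1) above control on the log2 scale. Gstm1, a mu-class glutathione transferase, stood at 764, 990 and 1146 CPM, 0.37 (0.24 to 0.50) and 0.59 (0.41 to 0.76) above control. Both glutathione transferases were higher than control in both 4T1 libraries, Gsta3 at day 4 in 20 of 20 alternatives, and Gsta3 at day 21 and Gstm1 at each time in 18 of 20. At day 4 Gstm1 turned to −0.23 with the 6 selection genes at 5% or more, and at day 21 Gstm1 turned to −0.13 and Gsta3 to −0.16 at 10% or more.

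Sult2a8 (chr7:14410686-14446769), a sulfotransferase of bile acids, stood at 245, 328 and 106 CPM, higher at day 4 (0.42, 0.20 to 0.65) and 2.3-fold lower at day 21 (−1.20, −1.76 to −0.71). Ugt2b1 (chr5:86916638-86926530), a glucuronosyltransferase, stood at 89, 85.3 and 42.8 CPM, with 15 UMIs at day 21 (−1.02, −1.96 to −0.26). For Sult2a8 and Ugt2b1 the day-21 library was the lowest.

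Akr1c6, a keto reductase of steroids, stood at 743, 1350 and 1440 CPM, and both 4T1 libraries lay near 2-fold above control (0.86, 0.74 to 0.99, and 0.96, 0.79 to 1.12). Adh1, the main alcohol dehydrogenase, stood at 483, 523 and 662 CPM and was above control at day 21 (0.46, 0.22 to 0.68), with a day-4 interval that included 0. Aldh2, the mitochondrial enzyme that clears acetaldehyde, stood at 791, 875 and 836 CPM, a difference of at most 0.15 on the log2 scale. The median of these 3 at day 21, 0.46, stayed above 0 in each of the 20 alternatives described in the closing section.

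The 3 gluconeogenesis genes lay on both sides of the control. Pck1, which makes phosphoenolpyruvate, stood at 2684, 1986 and 1714 CPM, lower at day 4 (−0.43, −0.51 to −0.36) and at day 21 (−0.65, −0.78 to −0.52). G6pc, the catalytic subunit that releases free glucose, stood at 521, 657 and 314 CPM, with a day-4 ratio of 0.33 (0.18 to 0.49) that turned to −0.39 in barcodes thinned to 1000 UMIs, and lower at day 21 (−0.73, −1.04 to −0.43). Fbp1, fructose bisphosphatase, stood at 922, 1152 and 1223 CPM, higher at both times (0.32, 0.20 to 0.44, and 0.41, 0.24 to 0.58; −0.08 at day 21 with the 6 selection genes at 10% or more).

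Of the 5 genes of amino acid breakdown, 4 were above control at day 4 with intervals that excluded 0 (10.6% of all genes and 25% of hepatocyte-enriched genes). Of these, 3 were also above it in this way at day 21 (20.1% and 20.9%). Hal, which opens histidine breakdown, stood at 288, 449 and 468 CPM (0.64, 0.44 to 0.85, and 0.70, 0.41 to 0.99). Hpd, of tyrosine breakdown, stood at 1232, 1685 and 1788 CPM (0.45, 0.35 to 0.55, and 0.54, 0.40 to 0.68). Gls2, the liver glutaminase, stood at 187, 257 and 248 CPM (0.46, 0.20 to 0.72, and 0.41, 0.02 to 0.78). In these 3 genes both 4T1 libraries lay above control, with 2 exceptions among the alternatives at day 21, Hpd in Cyp2e1-leaning barcodes (−0.05) and Gls2 in thinned ones (−0.02).

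Sds, which breaks down serine, stood at 537, 672 and 439 CPM (0.32, 0.17 to 0.48, and −0.29, −0.56 to −0.03). Tat, the tyrosine aminotransferase induced by glucocorticoids, stood at 1626, 1468 and 1143 CPM (−0.15, −0.24 to −0.05, and −0.51, −0.67 to −0.35). Tat and Hpd, the first 2 steps of tyrosine breakdown, lay on opposite sides of the control at both times.

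All 5 genes of fatty acid and lipoprotein handling were below control at both times, with median log2 ratios of −0.44 and −0.56 (3 of 5 at day 4 per UMI of the 6 selection genes, and 4 of 5 when each barcode counted equally). Beside this stood 45.3% of all genes and 40.4% of hepatocyte-enriched genes below control at day 4, and 33.3% and 49% at day 21. Cyp4a14 (chr4:115486200-115496142), a fatty acid hydroxylase and a classic target of PPARA, stood at 84.8, 15.3 and 11.4 CPM from 82, 23 and 4 UMIs. It was 5.45-fold lower than control at day 4 (log2 −2.45, −3.20 to −1.79) and 6.65-fold lower at day 21 (−2.73, −4.80 to −1.48). One control barcode held 26 of its 82 control UMIs, and without the 5 deepest barcodes of each library it was −2.95 at day 21. Ehhadh, of peroxisomal fatty acid oxidation, stood at 163, 107 and 99.8 CPM (−0.61, −0.93 to −0.28, and −0.70, −1.28 to −0.18).

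Fabp1, the liver fatty acid binding protein, stood at 13720, 12840 and 9649 CPM (−0.10, −0.13 to −0.06, and −0.51, −0.56 to −0.45). Lipc, hepatic lipase, stood at 124, 91.3 and 85.5 CPM, and Mttp, which loads lipid on apolipoprotein B, at 107, 103 and 71.3 CPM. Intervals of Lipc at day 21 and of Mttp at both times included 0. The group's median was above 0 in barcodes thinned to 1000 UMIs, at 0.17 for day 4 and 0.03 for day 21.

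Because Cyp2e1 and Cyp2f2 mark opposite ends of the lobule, their joint presence in a barcode was read. Of barcodes with either gene, 1 of 96 in control, 12 of 205 at day 4 and 3 of 75 at day 21 held both. Among barcodes with 5 or more UMIs of the pair, 18, 44 and 10 leaned to Cyp2e1 by more than 2-fold and 20, 33 and 8 to Cyp2f2, with 0, 0 and 1 between. The Cyp2e1-leaning barcodes held 33.7, 32.3 and 41.2% of the leaning barcodes' UMIs. Their median depth was 5895, 3256 and 3777 UMIs, against 25460, 23580 and 10600 in Cyp2f2-leaning barcodes.

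Of the other 32 members, 10 of the 13 listed in a zone lay on its side in each of the 3 libraries, with intervals that excluded 0. Over all 2164 genes with 100 or more UMIs on both sides and in all libraries together, 7.95% were higher and 3.23% lower in this way in Cyp2e1-leaning barcodes, and over 652 hepatocyte-enriched genes 12.1 and 7.67%. Of the 6 other members listed as pericentral, Cyp1a2, Cyp2c29, Cyp7a1, Gstm1 and Slco1b2 were higher in Cyp2e1-leaning barcodes in all 3 libraries, and Cyp3a11 was so in control alone (log2 0.36, then −0.32 and −0.51). Cyp1a2 had 233 against 4 UMIs in control, 369 against 28 at day 4 and 24 against 0 at day 21, that is 102-fold, 27.1-fold and at least 11.4-fold higher per UMI (floor of 3 counts per side). Cyp7a1 had 35 against 0, 145 against 19 and 6 against 0 UMIs, at least 23-fold, 15.6-fold and at least 2.85-fold higher. Of the 7 members listed as periportal, Fbp1, Gls2, Hal, Pck1 and Sds were lower in Cyp2e1-leaning barcodes in all 3 libraries.

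Sds had 0 against 483, 8 against 796 and 0 against 55 UMIs, at least 81.7-fold, 44.8-fold and at least 12.9-fold lower on the Cyp2e1 side. Hal was 29.6-fold, 10.8-fold and 20.3-fold lower there. Hpd, listed as periportal, went the other way and was 2.45-fold, 1.89-fold and 1.59-fold higher on the Cyp2e1 side. G6pc, also listed as periportal, had a log2 ratio of 0.28 with an interval that included 0 in control and was lower on that side at day 4 (−0.57) and day 21 (−1.24). Akr1c6, listed in neither zone, was 12.9-fold, 7.54-fold and 4.43-fold higher there, and Gsta3 3.23-fold, 2.63-fold and 4.24-fold. In all, 7 of the 19 members listed in neither zone were higher on the Cyp2e1 side with intervals above 0 in all 3 libraries (Adh1, Akr1c6, Aldh2, Cyp27a1, Fabp1, Gsta3 and Sult2a8), and 0 were lower in this way.

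**Figure D3:**
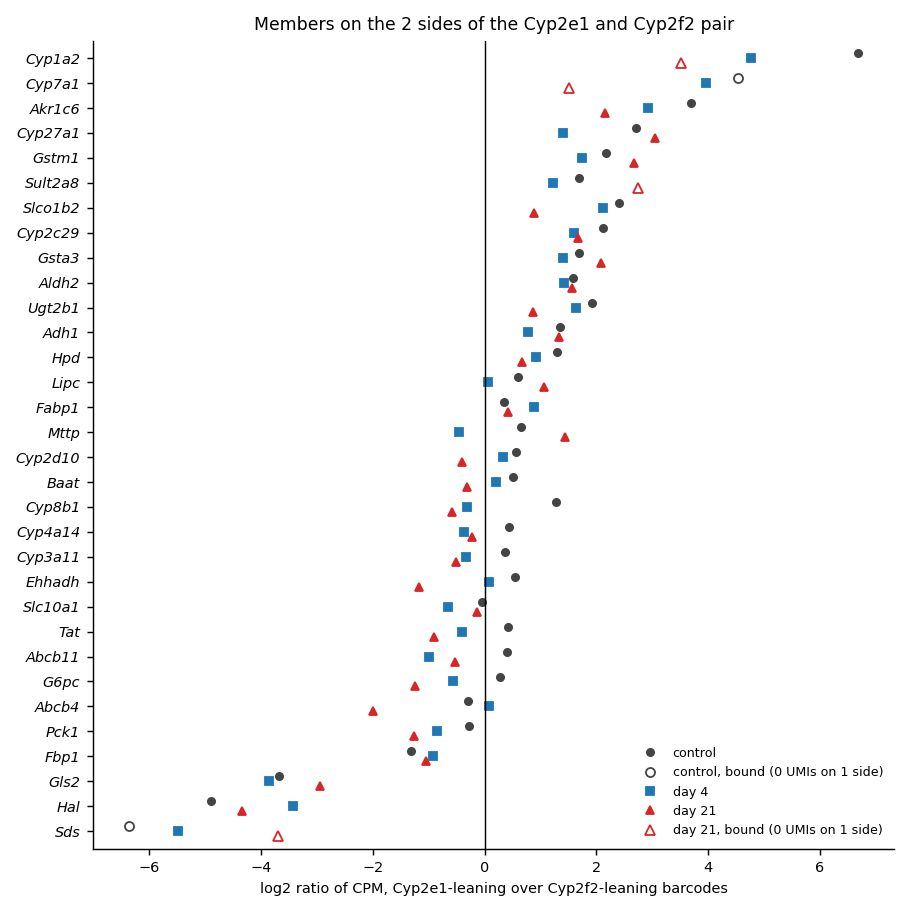
Log2 ratio of CPM in Cyp2e1-leaning over Cyp2f2-leaning barcodes (horizontal axis) for the other 32 members in each library, with open symbols at the bound for genes with 0 UMIs on 1 side. Cyp1a2, Cyp7a1 and Akr1c6 lie to the right and Sds, Hal and Gls2 to the left in all 3 libraries.

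Set against control within each side, some differences held on both sides and others on 1. Akr1c6 in Cyp2f2-leaning barcodes stood at 132, 350 and 432 CPM, 1.40 (1.03 to 1.80) and 1.72 (1.10 to 2.30) above control, against 0.63 (0.47 to 0.79) and 0.18 (−0.13 to 0.47) on the Cyp2e1 side. Cyp7a1 at day 4 was 1.53 (1 to 2.12) above control on the Cyp2e1 side, and on the Cyp2f2 side it had 0, 19 and 0 UMIs in the 3 libraries. Cyp4a14 at day 4 was lower on both sides (−2.88, −4.51 to −1.70, and −2.07, −2.98 to −1.27). Pck1 was lower on both sides at both times, by −0.94 and −1.48 on the Cyp2e1 side and −0.36 and −0.49 on the Cyp2f2 side.

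At day 21, Tat (−1.54, −2.04 to −1.12), G6pc (−1.52, −2.51 to −0.76) and Cyp2d10 (−1.47, −2.41 to −0.73) were lower on the Cyp2e1 side. On the Cyp2f2 side their day-21 intervals included 0 (Tat −0.51 to 0.06, G6pc −0.50 to 0.44, Cyp2d10 −1.15 to 0.05). Sult2a8 had 74, 181 and 0 UMIs on the Cyp2f2 side, where 0 of 85631 UMIs allows up to 35 CPM against 136 CPM in control. These day-21 values come from 10 and 8 barcodes, and the differences between the sides were not tested.

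Depth differed between barcodes, so barcodes with 1000 or more UMIs (81, 155 and 65) were each thinned to 1000 UMIs and the share with at least 1 UMI of a gene was read. Gsta3 was found in 49.4% (38.1 to 60.7) of control, 80% (72.8 to 86) of day-4 and 70.8% (58.2 to 81.4) of day-21 barcodes. Unthinned, it was in 62.1, 86.6 and 84.4% of hepatocyte-transcript-rich barcodes, against 2.68, 4.62 and 2.37% of other barcodes, whose median depths were 2890, 2420 and 2626 UMIs. Akr1c6 went the same way, at 39.5% (28.8 to 51), 65.8% (57.8 to 73.2) and 72.3% (59.8 to 82.7), and unthinned at 57.9, 78 and 78.2% against 3.15, 3.93 and 2.45% in other barcodes. Gstm1 was found in 40.7% (29.9 to 52.2), 68.4% (60.4 to 75.6) and 64.6% (51.8 to 76.1), and unthinned in 62.1, 70.7 and 73.5% against 16.3, 13.9 and 14.8%. These intervals cover the counting of barcodes within 1 library per group.

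Fbp1 was found in 44.4% (33.4 to 55.9), 63.2% (55.1 to 70.8) and 73.8% (61.5 to 84) of thinned barcodes, and unthinned in 55.9, 66.2 and 71.4% against 3.07, 3.72 and 3.1% of other barcodes. Hal was found in 16% (8.83 to 25.9), 23.9% (17.4 to 31.4) and 41.5% (29.4 to 54.4), and unthinned in 22.1, 26.8 and 34.7% against 1.5, 1.94 and 2.62%. In the opposite direction, G6pc was found in 33.3% (23.2 to 44.7), 23.9% (17.4 to 31.4) and 12.3% (5.47 to 22.8), and unthinned in 42.1, 30.5 and 21.1% against 2.87, 2.59 and 0.23%. For G6pc the day-4 share lay below control while its CPM lay above it, so no order is read for day 4.

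Sult2a8 was found in 23.5% (14.8 to 34.2), 35.5% (28 to 43.6) and 9.23% (3.46 to 19) of thinned barcodes, and unthinned in 40.7, 43.6 and 17.7% against 1.12, 1.53 and 0.418% of other barcodes. Cyp7a1 was found in 2.47% (0.3 to 8.64), 9.68% (5.52 to 15.5) and 0 of 65 thinned barcodes, where a floor of 3 barcodes allows up to 4.62% with a UMI at this depth. Unthinned it was in 8.28, 11.6 and 2.72% against 0.173, 0.746 and 0.041% of other barcodes. Shares of Pck1 were close to one another at 70.4, 69.7 and 69.2%, beside a lower CPM in both 4T1 libraries.

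**Figure D4:**
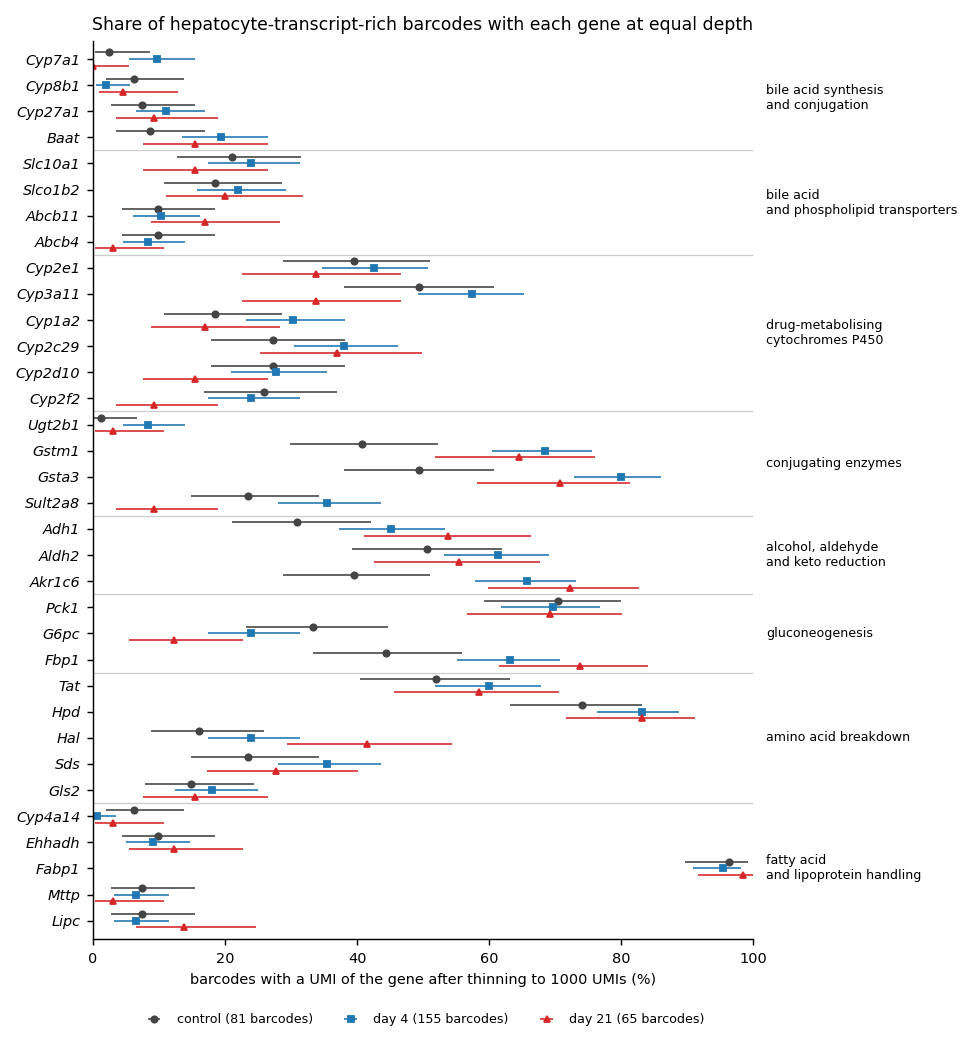
Share of hepatocyte-transcript-rich barcodes with at least 1 UMI of each gene after thinning to 1000 UMIs (horizontal axis, percent; bars are exact 95% binomial intervals) in 81 control, 155 day-4 and 65 day-21 barcodes. Gsta3, Akr1c6 and Fbp1 lie further right in both 4T1 libraries than in control, and G6pc, Cyp2f2 and Sult2a8 lie furthest left at day 21.

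Outside these barcodes the members were read at a low level. The 6 selection genes summed to 1693, 1662 and 352 CPM in the other barcodes, against 90817, 80996 and 81954 CPM in hepatocyte-transcript-rich ones. The median member stood there at 1.4, 1.47 and 0.632% of its own level in hepatocyte-transcript-rich barcodes. Scaled to the selection genes, 27, 26 and 22 of the 34 members were within 2-fold of the level that hepatocyte RNA in that ratio would give. More than 2-fold above it were 4, 5 and 10 members, and more than 2-fold below it 3, 3 and 2. Hal stood at 4.2, 6.54 and 8.28 CPM in other barcodes, highest at day 21, where the selection genes were lowest.

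Some members were well above that ratio in all 3 libraries in barcodes named by markers of another cell class. Aldh2 was 26, 19.5 and 108 times the level set by the ratio over all other barcodes, and 864, 708 and 378 CPM in stellate-like ones. Cyp27a1 was 13.4, 10.6 and 25.8 times that level in Kupffer-like barcodes (51.2, 43.5 and 32.5 CPM) and 19.8, 9.8 and 20 times in stellate-like ones. Abcb4 was 3.88, 5.26 and 11.3 times that level in Kupffer-like barcodes, Mttp 11.3, 6.76 and 15.2 times in lymphoid-like and 3.93, 3.55 and 12.5 times in endothelial-like ones, and Gstm1 9.12, 7.01 and 11.8 times in stellate-like ones. For Aldh2, 46.5 to 48.5% of the hepatocyte-transcript-rich level was read in other barcodes in control and day 21 and 40.1% at day 4.

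Genes of the same pathways outside the 34 were read from 11 lists. Of 22 other genes of amino acid breakdown, 22 were above control at day 4 (21 when each barcode counted equally). Beside this stood 54.7% of all genes and 59.6% of hepatocyte-enriched genes. Intervals lay wholly above control for 19, beside 10.6% and 25%, and the median log2 ratio was 0.48 (0.24 to 0.67 over the alternatives). The highest was Gnmt, a glycine methyltransferase, at 691, 1600 and 1103 CPM (1.21 at day 4), and the lowest Got1, an aspartate aminotransferase, at 0.01. At day 21, 15 of 22 were above control (median 0.22), beside 66.7% and 51%, so this count was close to the share of all genes. They ran from Oat, ornithine aminotransferase, at 0.91 to Got1 at −0.39. In Cyp2e1-leaning barcodes this day-21 median was −0.38.

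Of 22 measured genes of fatty acid oxidation and PPARA targets, 17 were below control at day 4 (median −0.38). Beside this stood 45.3% of all genes and 40.4% of hepatocyte-enriched genes. Of the 22, 4 were 2-fold or more lower, beside 3.06% and 2.4%, and 0 higher, beside 3.95% and 5.66%. The lowest was Pdk4, which restrains glucose oxidation, at 33.1, 3.33 and 5.7 CPM from 32, 5 and 2 UMIs (−3.20, −5.03 to −1.94), and the highest Hadh at 0.37. In other barcodes Pdk4 stood at 42.9, 17.4 and 5.14 CPM. It was thus no higher in hepatocyte-transcript-rich barcodes in control and day 4, and was lower in both 4T1 libraries outside them too. At day 21, 15 of 21 were below control (median −0.22), beside 33.3% and 49%. They ran from Cyp4a10, a relative of Cyp4a14, at −2.94 (−4.08 to −2.10) to Eci1 at 0.78. The median was above 0 at both times when each barcode counted equally (0.11 and 0.40).

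Among other cytochromes P450, a list that also holds electron donors of these enzymes, 23 of 27 genes were below control at day 21 (median −0.45). Beside this stood 33.3% of all genes and 49% of hepatocyte-enriched genes. Of the 27, 6 were 2-fold or more lower, beside 5.14% and 8.05%, and 0 higher, beside 11.5% and 7.18%. At day 4, 13 of 28 were below control (median 0.00), beside 45.3% and 40.4%. Cyp2c40 was the lowest at day 21, at 146, 88.6 and 19.96 CPM (−2.77, −4.21 to −1.79). Cyb5a, the electron donor cytochrome b5 and not itself a P450, was the highest of the list (0.83). At day 4 they ran from Cyp2c69 at −1.68 to Cyp17a1 at 1.36. The day-21 median was 0.20 when each barcode counted equally.

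Other conjugating enzymes were above control in 21 of 28 genes at day 4 (median 0.31), beside 54.7% of all and 59.6% of hepatocyte-enriched genes. At day 21 they were above it in 19 of 26 (median 0.41), beside 66.7% and 51%. They ran from Ephx1 (−0.80) to Nnmt, which methylates nicotinamide (1.74, 1.26 to 2.28), at day 4 and from Ugt2b5 (−1.26) to Sult1b1 (1.80, 0.57 to 3.09) at day 21. Other bile acid genes had medians of 0.02 over 18 and −0.15 over 16 genes. They ran from Klb (−0.56) to Amacr (0.61) at day 4 and from Slco1a1 (−1.59) to Acot8 (1.19) at day 21. Acot8 then stood at 39.9 CPM against 26.6 CPM in other barcodes, and Slco1a1 at 22.8 against 0.136 CPM. Other glucose genes were above control in 9 of 13 at day 4 (median 0.31, Ppargc1a −0.67 to Pfkfb1 0.95), beside 54.7% and 59.6%. At day 21 they were below it in 12 of 12 (median −0.29, Ppargc1a −1.83 to Tkfc −0.05), beside 33.3% and 49%. This day-21 median was 0.27 when each barcode counted equally.

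Fatty acid and sterol synthesis genes ran from Gpam (−1.24) to Fasn, the fatty acid synthase, at day 4 (median 0.34). There 5 of 17 were 2-fold or more higher, beside 3.95% of all genes and 5.66% of hepatocyte-enriched genes. Fasn stood at 82.8, 358 and 168 CPM, 4.3-fold over control at day 4 (2.10, 1.77 to 2.47). At day 21 the lowest was Lpin1 (−1.91), and the median was −0.19. Acute phase genes had a median of −0.10 at day 4 (Serpina3n −0.46 to Lrg1 0.63) and 0.89 at day 21. Then 8 of 17 were 2-fold or more higher, beside 11.5% of all genes and 7.18% of hepatocyte-enriched genes. The list ran at day 21 from Hamp (−0.54) to Saa2, serum amyloid A2, at 9.31, 12.7 and 1092 CPM (6.80, 5.93 to 8.01). In other barcodes at day 21 Saa2 stood at 3.55 CPM, but Lrg1 at 688 CPM against 656 CPM in hepatocyte-transcript-rich ones. How much of these levels came from other cells was not tested.

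Hepatocyte transcription factors had medians of 0.11 over 10 genes (lowest Nr1i3, −0.58) and −0.27 over 9 (Nr1i2 −0.90 to Cebpb 0.55). Cebpb stood at 413, 445 and 605 CPM, against 486, 361 and 643 CPM in other barcodes. Nr1i2 stood at 39.3, 38 and 19.96 CPM, against 0.61, 0.69 and 0.155 CPM. Hnf4a itself stood at 182, 213 and 177 CPM, with intervals that included 0 at both times (0.23 and −0.03). Genes biased to female liver had medians of −0.33 and −0.62 over 7 genes (Sult3a1 −0.87 to A1bg 1.31 at day 4, and A1bg −2.51 from 1 UMI, −8.43 to −0.44, to Cyp2b13 −0.16 at day 21). Genes biased to male liver had medians of −0.08 over 4 and −0.86 over 3 genes (Slco1a1 −0.34 to Cyp2d9 0.40, and Slco1a1 −1.59 to Mup20 0.05).

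**Figure D5:**
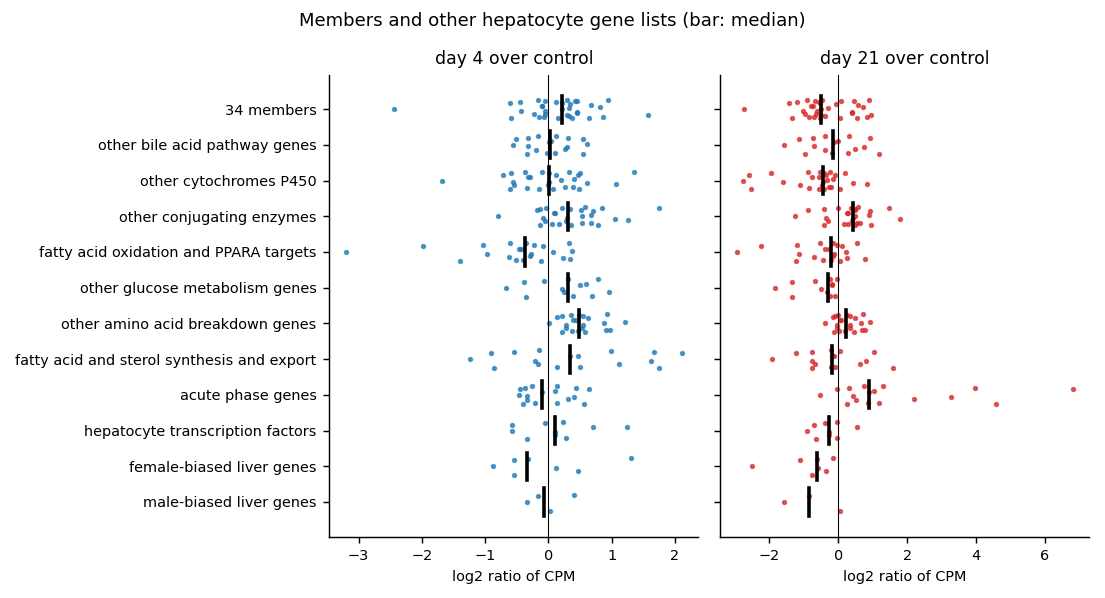
Log2 ratio of CPM to control (horizontal axes) at day 4 and day 21 for the 34 members and for the measured genes of 11 other gene lists, each point 1 gene and each bar the median. Other amino acid breakdown genes all lie above 0 at day 4, and acute phase genes have the highest median at day 21 (0.89).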

How the data were processed

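The deposited matrices hold raw UMI counts per gene and barcode. The authors made them, per the file headers, in Cell Ranger 3.1.0; mm10 is named in the submitters' processing notes. The smallest barcode held 500 UMIs. Library totals were 27191082, 34833820 and 51913215 UMIs. Gene positions are from GENCODE M21 (30934 gene IDs matched).

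Counts were summed over hepatocyte-transcript-rich barcodes, with no mitochondrial limit and no doublet removal in the main values; Scrublet, in Scanpy 1.11.5, called 0, 0 and 2 of these barcodes. Log2 ratios of CPM add 0.5 counts to each sum and carry exact conditional binomial intervals. A call is 2-fold, for genes whose 2 compared libraries hold 20 or more UMIs in sum. The ratio and interval steps were tested on simulated counts. Tables and intervals used pandas 2.3.3 and SciPy 1.17.1 under Python 3.11.15, sums NumPy 2.4.6, and plots matplotlib 3.10.9.

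Named are all 34 members, Hnf4a, and the highest and lowest gene of each other list in each comparison with control, of which 2, with 1 of 4 promoter motifs searched, are not reported here. Members and lists were chosen with earlier results of these data known. Barcode classes are the class whose markers hold the most UMIs, at least 3 and at least 2 times the next. Of the 20 alternatives tried, 4 were chosen after seeing the data: without the 5 deepest barcodes, under 1000 UMIs, and each side of the Cyp2e1 and Cyp2f2 pair.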

Additional observations from a re-analysis of the deposited data

How the results depend on the processing

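Medians and counts are over the 34 members unless stated. The day-4 median of 0.21 was 0.43 in barcodes under 1000 UMIs, 0.42 when barcodes were thinned to 1000 UMIs, 0.38 per UMI of the 6 selection genes and −0.13 in Cyp2e1-leaning barcodes; it was 0.02 with at most 20% mitochondrial UMIs. The day-21 median of −0.51 was 0.44 under 1000 UMIs, and −0.01 thinned, −0.02 in Cyp2f2-leaning barcodes and −0.13 as a mean over barcodes. In these settings the day-21 median of hepatocyte-enriched genes moved too, to 0.597, 0.409, 0.153 and 0.425. The median of day 21 over day 4 was −0.37, and 0.22 under 1000 UMIs.

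The 1 member 2-fold higher at day 4 became 5 with at most 20% mitochondrial UMIs, 4 with the selection genes at 10%, without barcodes of another marker class, in Cyp2f2-leaning barcodes and as a mean over barcodes, 3 per UMI of the selection genes, and 2 under 1000 UMIs, thinned and in Cyp2e1-leaning barcodes. The 1 member 2-fold lower became 0 under 1000 UMIs and thinned and 2 as a mean over barcodes. The 5 members 2-fold lower at day 21 became 9 with at most 20% mitochondrial UMIs, 2 with the selection genes at 10%, 12 without barcodes of another marker class, 1 under 1000 UMIs, 10 and 2 in Cyp2e1- and Cyp2f2-leaning barcodes and 1 as a mean over barcodes. The 0 members 2-fold higher became 2 with at most 20% mitochondrial UMIs, at 10% and per UMI of the selection genes, 1 with 12 markers in place of 6 genes and in Cyp2f2-leaning barcodes, 5 without barcodes of another marker class and as a mean over barcodes, 3 without the 5 deepest barcodes and thinned, and 6 under 1000 UMIs. Cyp2e1 at day 21 was 3.35 at 10%. For all of these the cause was not tested. The share of other genes past 2-fold in each alternative was not read, so these counts have no background beside them.

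The shares of hepatocyte-transcript-rich barcodes, 2.23, 3.57 and 1.19%, were 0.956, 1.94 and 0.924% with at most 20% mitochondrial UMIs, 1.22, 1.6 and 0.535% at 5%, 0.262, 0.283 and 0.13% at 10%, and 1.25, 1.69 and 0.527% with 1000 or more UMIs; day 21 was 0.47% without barcodes of another marker class. Scaling to the selection genes moved the median of hepatocyte-enriched genes from 0.12 to 0.28 at day 4 and from 0.02 to 0.17 at day 21. The 6 selection genes were not steady themselves. Their log2 ratios to control ran from −0.75 (Apoa1) to 0.007 (Trf) at day 4 (median −0.13). At day 21 they ran from −0.38 (Alb) to 0.42 (Fgb), with a median of 0.11. Over all alternatives that measured them, 13 of 34 members kept their side of control at day 4 (Cyp7a1, Cyp2f2, Cyp4a14, Gsta3, Baat, Pck1, Fbp1, Hpd, Hal, Ehhadh, Akr1c6, Sult2a8 and Gls2) and 13 at day 21 (Cyp2d10, Cyp4a14, Ugt2b1, Adh1, Slc10a1, Abcb4, Baat, G6pc, Hal, Mttp, Lipc, Akr1c6 and Sult2a8). Without the same count over other genes, this does not show whether members kept their side more or less often than those.

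Depth limits the day-21 values, with 350708 UMIs and 4 to 7 UMIs for Cyp4a14 and Cyp7a1. No paired analysis was possible because each group has 1 library.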
